A study of Mus musculus with 7 samples.

Results

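The DNA damage checkpoint and repair genes are described here as a set of 40. They were chosen by name from the standard repair pathways, with earlier results of these data known. All 40 had counts in the deposited table of 15588 genes, and all 40 were among the 12929 genes that passed the filter on low counts. They comprise 11 genes of homologous recombination, 5 of the Fanconi anaemia pathway, 10 of break sensing and checkpoint signalling, 2 of mismatch repair, 5 of end joining, 4 of base excision and single-strand break repair, and 3 of nucleotide excision repair. Their RNA was measured by bulk RNA sequencing of CD4 (helper) T cells taken by sorting out of tumours in a mouse model of hepatocellular carcinoma, in which tumour is transplanted into the liver, at day 7 (5 libraries) or day 0 (2 libraries). No genotype, strain, age or drug treatment is named in the labels, and the tissue that stood for tumour on day 0 is not named either. The comparison of day 7 with day 0 describes how the levels of these genes differ between the days. A difference in the tissue sampled cannot be told apart from one of time. Each library goes by its column's final digit, which is 1, 2, 3, 5 or 6 at day 7 and 2 or 3 at day 0 and cannot be matched to a sample title. Whether each library is a different animal is not stated, and the p-values therefore describe variation among these libraries only, which may be technical.

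Cells repair a broken chromosome in either of 2 main ways. Homologous recombination copies the missing stretch from the sister chromatid and therefore works in S and G2 phase, and many of its genes are transcribed mainly in dividing cells. End joining ligates the broken ends directly in any phase of the cycle and also completes V(D)J recombination of antigen receptor genes in developing lymphocytes. Excision pathways replace single damaged bases or short stretches, mismatch repair corrects copying errors, and the kinases ATM and ATR signal damage to the checkpoint kinases and to p53.

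None of the 40 genes passed edgeR's quasi-likelihood test at a Benjamini-Hochberg adjusted p below 0.05, where 1.54% of all genes tested did (1.07% higher and 0.472% lower), so no gene of the set is described as risen or fallen. At an unadjusted p under 0.05 edgeR gave 7 of the 40, all higher at day 7 (6.29% of all genes tested), and DESeq2 called 6 of the 40 at its adjusted threshold, Brca1, Rad51ap1, Exo1, Fancd2, Neil3 and Parp1, all higher (6.76% of the genes it tested, 5.19% higher). Without a filter on low counts 1 was called, Brca1 (2.41% of all genes, 1.6% higher), and limma-voom called 0 (1.14%, with 0.41% higher). With library sizes alone 1 was called, again Brca1 (1.58%, with 1.15% higher). The nearest to the edgeR threshold was Brca1, with an adjusted p of 0.0503. In 9 of the 40 genes (22.5%) every day 7 library lay above both day 0 libraries, which was the case for 7.53% of all genes tested. In 1 of the 40, Xrcc3, every day 7 library lay below both (7.74% of all genes tested). Of the 9 genes, 5 belonged to homologous recombination, 2 to the Fanconi anaemia pathway and 2 to base excision and single-strand break repair. None of the break sensing and checkpoint, mismatch repair, nucleotide excision or end joining genes was among them. Since the 40 genes were chosen with earlier results known, their shares beside those of all genes are a description only.

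Total counts were between 21910818 and 26955367 in the day 7 libraries and 24351820 and 28333855 in the day 0 libraries. Levels are given as CPM, the counts scaled to library size with TMM factors. The T cell genes Cd3d, Cd3e, Cd3g and Cd4 were present throughout, with a summed level of 1996 to 2668 CPM at day 7 and 1931 and 2193 CPM at day 0. Markers of other cells differed between libraries. The sum of Cd8a and Cd8b1 was 10.98 to 204 CPM at day 7 and 2.32 and 3.66 CPM at day 0, with 204 and 175 CPM in day 7 libraries 5 and 6. The sum of 5 myeloid genes was 8.02 to 233 CPM at day 7 and 5.41 and 13.4 CPM at day 0, and of 4 NK cell genes, mostly Klrb1c, 191 to 427 CPM and 644 and 726 CPM. The other NK cell genes did not follow Klrb1c, since Ncr1 averaged 9.83 CPM at day 7, against 3.34 CPM at day 0, Tyrobp 16.5 CPM, against 8.83 CPM, and Klra8 0.973 CPM, against 0 CPM. Cd79a, a B cell gene, was at 2.51 to 8.22 CPM at day 7, against 0 and 0.0357 CPM at day 0. The sum of 4 hepatocyte genes was 0 to 41.7 CPM at day 7, against 7.15 and 2.93 CPM in the day 0 libraries, and that of 3 endothelial genes, mostly Pecam1, 73.2 to 170.3 CPM, against 61.6 and 105 CPM. Of the defining genes, Ms4a1, Csf1r, Klra8, Cdh5 and Stab2 had no count in either day 0 library. The part of these cells in the results below was not tested. Without day 7 libraries 5 and 6 the number of repair genes called was again 0 in either direction, where 1.86% of the genes tested were called (0.975% higher). In such bulk samples, fewer cells that carry a transcript and less transcript per cell cannot be told apart.

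**Figure D1:**
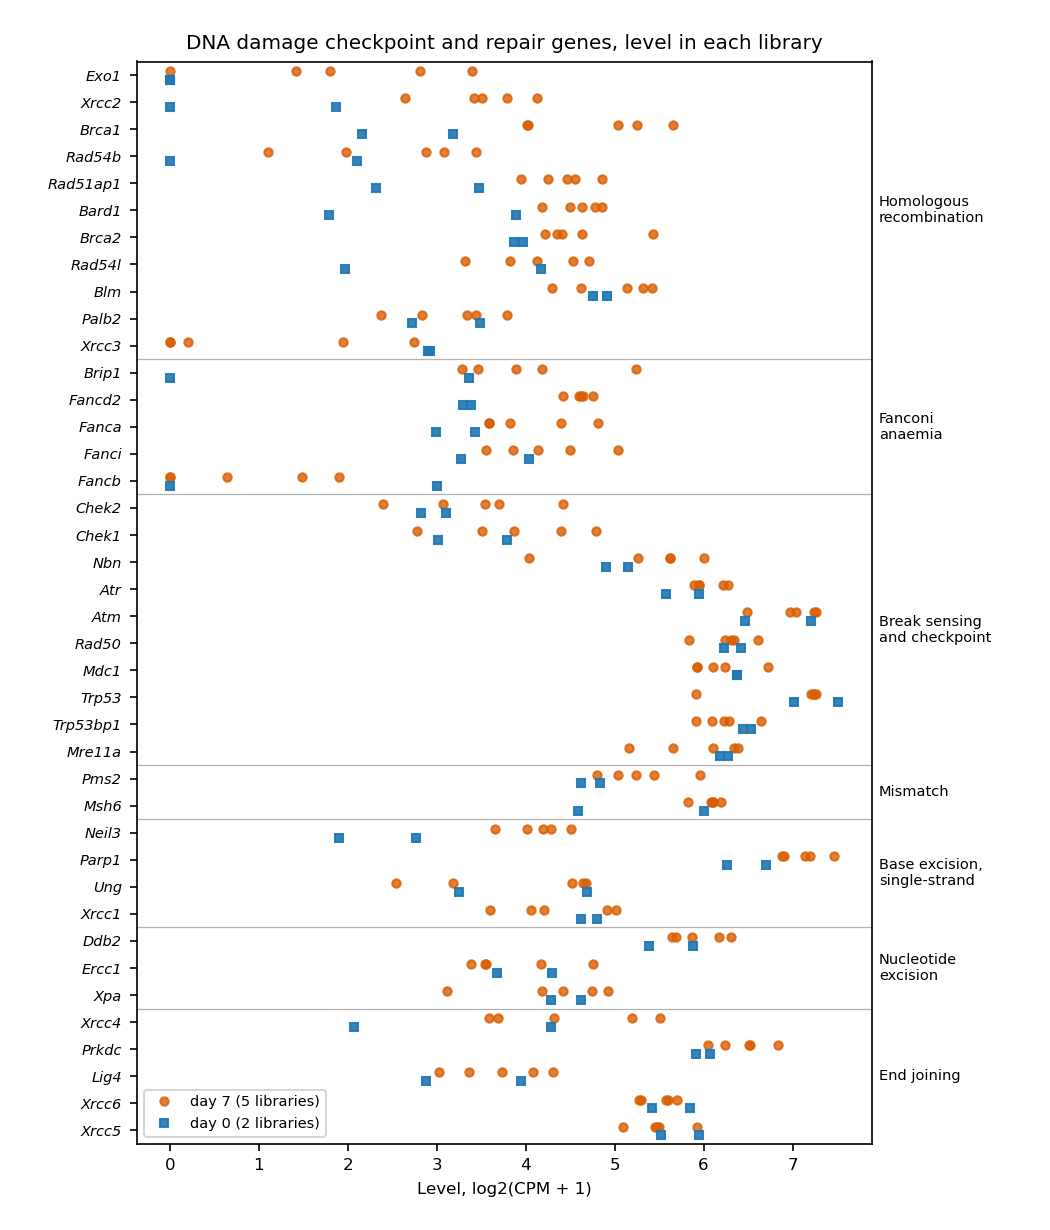
Level of each of the 40 genes in each library, as log2(CPM + 1), by repair class; circles are the 5 day 7 libraries and squares the 2 day 0 libraries. The circles of Brca1, Bard1, Rad51ap1, Fancd2, Neil3 and Parp1 lie to the right of both squares, while those of Atm, Rad50, Xrcc5 and Xrcc6 lie among them.

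Among the genes of homologous recombination, Brca1 (Entrez 12189), whose protein directs broken ends into recombination, was at 49.5, 15.3, 15.1, 31.9 and 37.0 CPM in day 7 libraries 1, 2, 3, 5 and 6, against 8.07 and 3.46 CPM in day 0 libraries 2 and 3. The groups did not overlap, although the day 7 libraries themselves differed by a factor of 3.27. The log2 change of Brca1 was 2.37 ± 0.62 (standard error; 95% interval 1.09 to 3.64; edgeR adjusted p = 0.0503). The call of Brca1 depended on the analysis. It was called higher with library sizes alone (adjusted p = 0.0475), with no filter on low counts (0.00608), with DESeq2 (5.14e-04), without day 7 library 3 (0.0446) and without day 0 library 2 (0.0265). Over the other libraries left out and the other settings its adjusted p was between 0.0517 and 0.441, the highest of these with limma-voom.

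Bard1 (Entrez 12021) encodes the RING-domain partner of BRCA1, and its level was 21.6, 17.1, 26.4, 27.9 and 23.8 CPM in the day 7 libraries, against 13.8 and 2.46 CPM in the day 0 libraries. All 5 day 7 values lay above both day 0 values, which differed more from each other than the day 7 values did. Its log2 change of 1.52 ± 0.64 (edgeR adjusted p = 0.363) became 3.25 when day 0 library 2 was left out, which passed (adjusted p = 0.0498), and 0.77 when day 0 library 3 was. Rad51ap1 (Entrez 19362), whose product stimulates strand invasion, stood at 21.2, 14.4, 22.5, 18.03 and 28.05 CPM at day 7, against 3.99 and 10.1 CPM at day 0. Here too the groups were separate, and the log2 change was 1.56 ± 0.65 (edgeR adjusted p = 0.351), or 2.39 when day 0 library 3 was left out. Brca2 (Entrez 12190), a tumour suppressor gene needed for strand exchange, was at 42.05, 23.7, 20.3, 19.4 and 17.6 CPM at day 7, against 13.6 and 14.7 CPM at day 0. Library 1 stood well above the other day 7 libraries, and the log2 change of 0.80 ± 0.52 did not pass (edgeR adjusted p = 0.636).

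Xrcc2 (Entrez 57434), needed for repair by recombination, had 10.9 ± 4.15 CPM at day 7 (SD, n = 5), against 0 and 2.64 CPM at day 0, with every day 7 library higher than both (log2 change 3.04 ± 1.56, edgeR adjusted p = 0.533). Because day 0 library 2 had no count of Xrcc2, its fitted change depended on that library, and it was called higher without day 0 library 3 (adjusted p = 0.0404). Exo1 (Entrez 26909), the exonuclease that resects broken ends and also serves mismatch repair, was without a count on day 0. Day 7 libraries 1, 2, 3 and 5 held 9.54, 5.999, 2.48 and 1.67 CPM of Exo1 and library 6 held 0, so the groups overlapped at 0 (edgeR adjusted p = 0.436). The day 7 mean of Exo1 was 68.3 times a floor of 3 counts over the day 0 group (0.0576 CPM), or 44.03 times without day 7 library 1. This ratio is no lower limit of the change, since the floor covers counting error only. Small counts were also mostly even numbers (72.4% to 78.1% of those between 2 and 200, by library). Xrcc3 (Entrez 74335), a further recombination gene, went the other way, at 0.148, 2.86, 0, 0 and 5.70 CPM at day 7, against 6.45 and 6.60 CPM at day 0 (log2 change -1.90 ± 2.45, edgeR adjusted p = 0.935). Its interval, from -6.95 to 3.14, covers large changes in both directions.

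The other recombination genes overlapped between the days. Rad54l, a DNA translocase, was at 8.95 to 25.2 CPM at day 7, against 17.0 and 2.93 CPM at day 0, and Rad54b, its relative, at 1.15 to 9.86 CPM, against 3.29 and 0 CPM. The exons of Rad54b share 35.9% of their length with other annotated genes, so its counts are uncertain. Blm, the Bloom syndrome helicase, had a log2 change of 0.19 ± 0.42, and Palb2, which links BRCA1 to BRCA2, of 0.09 ± 1.10. Over the 11 genes of homologous recombination, 10 had a positive log2 change. Their median was 1.52, also with Exo1 at its ratio to the floor, where the median of all genes tested was 0.04. The mean level of the class, as log2(CPM + 1), was 3.57, 3.55, 3.53, 3.55 and 3.74 in the day 7 libraries, against 2.72 and 2.42 in the day 0 libraries.

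Of the 5 genes of the Fanconi anaemia pathway, which unhooks DNA crosslinks at stalled replication forks, 4 had a positive log2 change. Fancd2 (Entrez 211651), whose ubiquitylated product marks the crosslink, was at 23.3, 23.5, 26.02, 23.96 and 20.4 CPM at day 7, against 9.48 and 8.78 CPM at day 0. This was the narrowest spread of the 40 genes within day 7, with a ratio of 1.27 between the highest and the lowest library. The log2 change of Fancd2 was 1.36 ± 0.54 (95% interval 0.24 to 2.48; edgeR adjusted p = 0.326), and leaving out single libraries gave 1.31 to 1.42. Its partner Fanci was at 10.7 to 31.9 CPM at day 7, against 8.65 and 15.5 CPM at day 0, and overlapped. Fanca, a core complex subunit, was at 11.02 to 27.1 CPM at day 7, against 9.81 and 6.93 CPM at day 0, with no overlap (log2 change 0.98 ± 0.71, edgeR adjusted p = 0.678). Brip1, the helicase that binds BRCA1, was at 8.76 to 36.8 CPM at day 7, against 0 and 9.32 CPM at day 0 (log2 change 1.89 ± 1.48, edgeR adjusted p = 0.758). It was called higher without day 0 library 3 (log2 change 11.74, adjusted p = 1.19e-04), a fit in which day 0 is 1 library with no count of it. Fancb, a core complex gene of the X chromosome, had at most 2.74 CPM at day 7, against 0 and 7.00 CPM at day 0, a spread too wide to give it a direction (log2 change -1.77 ± 3.11).

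**Figure D2:**
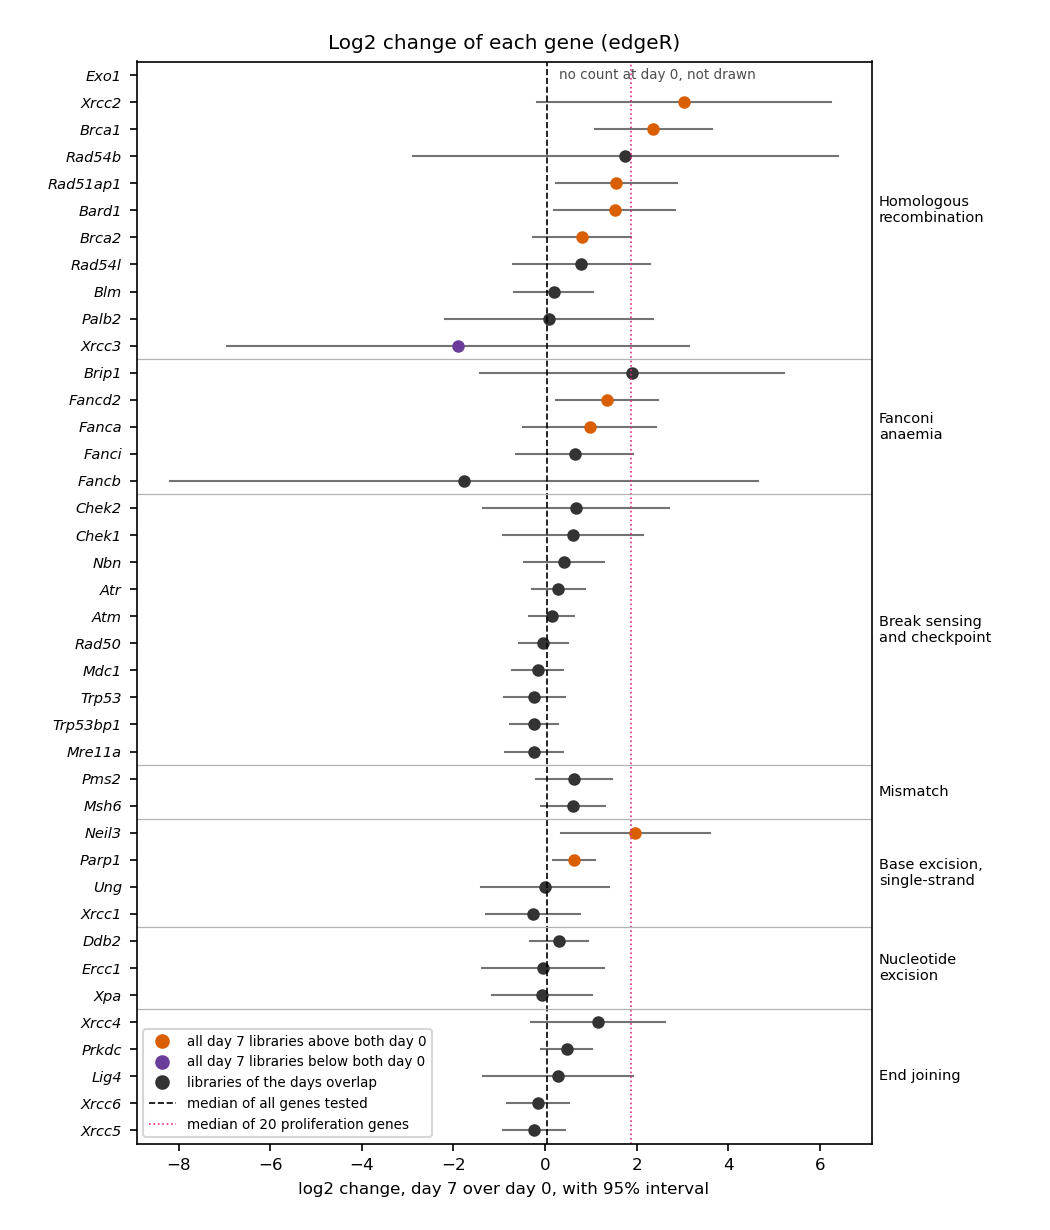
Log2 change of each gene, day 7 over day 0, from edgeR, with its 95% interval, by repair class; the dashed line is the median of all genes tested and the dotted line the median of 20 proliferation genes. Exo1, with no day 0 count, is not drawn. Points of homologous recombination and Fanconi genes lie mostly to the right of the dashed line with wide intervals, and those of break sensing and checkpoint genes lie around it.

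Break sensing and checkpoint genes had log2 changes between -0.24 and 0.68, with a median of 0.05 over 10 genes and 5 changes in each direction. For 7 of them, Atm, Atr, Rad50, Mre11a, Mdc1, Trp53 and Trp53bp1, the 95% interval lay between -1 and 1, as it did for 10 of the 40 genes. Atm (Entrez 11920), the kinase that responds to double-strand breaks, was at 130.6, 150.4, 152, 88.5 and 124.8 CPM at day 7, against 147 and 87.3 CPM at day 0. The range of day 7 covered almost the same span as the pair of day 0 values, and the log2 change was 0.14 ± 0.24 (95% interval -0.35 to 0.63; edgeR adjusted p = 0.976). Atr, the kinase of stalled forks, had a log2 change of 0.29 ± 0.28. In the complex that first binds broken ends, Rad50 had a log2 change of -0.04 ± 0.26, the nuclease gene Mre11a of -0.24 ± 0.31 and Nbn of 0.42 ± 0.43. The scaffolds Mdc1 and Trp53bp1, which gather on chromatin beside a break, had log2 changes of -0.16 ± 0.27 and -0.23 ± 0.25.

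Trp53 (Entrez 22059), which encodes p53, was at 152, 151, 147, 59.5 and 151 CPM in day 7 libraries 1, 2, 3, 5 and 6, against 128 and 181.5 CPM in the day 0 libraries. A single library, day 7 library 5, stood apart from the rest. The log2 change was -0.23 ± 0.31 (edgeR adjusted p = 0.947). The checkpoint kinase genes were low and scattered. Chek1, the effector of ATR, was at 20.04, 10.4, 26.6, 13.6 and 5.84 CPM at day 7, against 7.07 and 12.8 CPM at day 0 (log2 change 0.62 ± 0.74), and Chek2, the effector of ATM, at 4.27 to 20.5 CPM, against 7.61 and 6.07 CPM (log2 change 0.68 ± 0.98). The intervals of Chek1 (-0.91 to 2.15) and Chek2 (-1.34 to 2.70) allow a change in either direction.

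Of 20 target genes of p53, 0 passed edgeR's test in either direction, where 1.54% of all genes tested did. At an unadjusted p under 0.05 in edgeR, 0 of the 20 were higher and 1, Mdm4, was lower. Of all 12929 genes tested, 813 were higher and 489 lower at that threshold. The median log2 change of the 20 targets was -0.13. Mdm2, the ubiquitin ligase that degrades p53, averaged 114 ± 8.76 CPM in day 7 libraries and 129 ± 16.1 CPM in day 0 libraries (SD, n = 5 and 2; log2 change -0.18 ± 0.20). Cdkn1a, which encodes the cyclin-dependent kinase inhibitor p21, was at 4.88, 0.0795, 4.10, 33.9 and 37.7 CPM in day 7 libraries 1, 2, 3, 5 and 6, against 15.1 and 0.0357 CPM at day 0. Cdkn1a was highest in the same day 7 libraries in which the CD8 and myeloid genes were highest. Its log2 change of 1.09 ± 2.43 turned negative (-1.33) when day 7 libraries 5 and 6 were dropped. The change hung on the day 0 values as well. Dropping day 0 library 2, at 15.1 CPM, moved it to 8.64, while dropping day 0 library 3 moved it to 0.10. What caused these shifts was not tested.

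The pair of mismatch repair genes both had positive log2 changes. Msh6 (Entrez 17688), which recognises single-base mismatches, was at 55.6, 66.8, 68.1, 72.3 and 68.0 CPM at day 7, against 23.0 and 63.3 CPM at day 0. One day 0 library lay within the day 7 range and the other well below it, and the log2 change was 0.62 ± 0.34 (edgeR adjusted p = 0.587). Leaving out day 0 library 2 gave 0.066 and leaving out day 0 library 3 gave 1.53. Pms2, the endonuclease subunit of the same pathway, was at 27.0 to 61.3 CPM at day 7, against 23.7 and 27.5 CPM at day 0 (log2 change 0.64 ± 0.40, edgeR adjusted p = 0.636).

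Of the base excision and single-strand break genes, 2 had separate groups. Neil3 (Entrez 234258), a glycosylase that also unhooks crosslinks at replication forks, was at 15.2, 18.4, 11.6, 21.8 and 17.3 CPM at day 7, against 2.74 and 5.82 CPM at day 0. Every day 7 library was higher than both day 0 libraries, and the log2 change was 1.98 ± 0.79 (95% interval 0.35 to 3.60; edgeR adjusted p = 0.326). Parp1 (Entrez 11545), the polymerase that marks strand breaks with poly(ADP-ribose), was at 145, 118.7, 140.4, 116.8 and 175.5 CPM at day 7, against 76.0 and 103 CPM at day 0. These groups were also separate, with a log2 change of 0.64 ± 0.22 (95% interval 0.18 to 1.10; edgeR adjusted p = 0.225). The scaffold Xrcc1 and the uracil glycosylase Ung overlapped, with log2 changes of -0.27 ± 0.50 and 0.01 ± 0.68. Ung varied by a factor of 5.12 within day 7.

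Nucleotide excision genes stood near the median of all genes. Ddb2, which recognises ultraviolet lesions, was at 49.2 to 78.03 CPM at day 7, against 57.8 and 40.7 CPM at day 0 (log2 change 0.31 ± 0.31). Of its annotated exon length 23.8% lies opposite exons of Acp2, so its counts are uncertain without strand. The damage verifier Xpa and the nuclease subunit Ercc1 had log2 changes of -0.06 ± 0.53 and -0.04 ± 0.65.

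End joining genes had a median log2 change of 0.29, and all 5 overlapped between the days. The Ku heterodimer binds broken ends first. Xrcc6 (Entrez 14375), the Ku70 subunit gene, was at 37.5, 38.3, 47.5, 50.9 and 46.9 CPM at day 7, against 41.7 and 56.7 CPM at day 0. Xrcc5 (Entrez 22596), the Ku80 subunit gene, was at 42.97, 59.9, 43.6, 44.2 and 33.2 CPM at day 7, against 44.96 and 60.7 CPM at day 0. Neither subunit separated the days, and their log2 changes were -0.15 ± 0.32 (95% interval -0.82 to 0.52) and -0.24 ± 0.33 (95% interval -0.91 to 0.44). Prkdc (Entrez 19090), the kinase that Ku recruits, was at 90.5, 90.5, 113.5, 74.4 and 65.5 CPM at day 7, against 66.1 and 59.3 CPM at day 0. A single day 7 library lay below the higher day 0 value, and the log2 change was 0.47 ± 0.27 (edgeR adjusted p = 0.601). Xrcc4, the cofactor of the ligase, was at 10.98 to 44.5 CPM at day 7, against 18.5 and 3.21 CPM at day 0 (log2 change 1.16 ± 0.70, or 2.92 with day 0 library 2 left out and 0.40 with day 0 library 3 left out), and Lig4, the ligase itself, at 7.14 to 18.8 CPM, against 14.4 and 6.35 CPM (log2 change 0.29 ± 0.79).

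Set side by side, the median log2 change was 1.52 for homologous recombination, 0.98 for the Fanconi anaemia pathway, 0.63 for mismatch repair, 0.32 for base excision and single-strand break repair, 0.29 for end joining, 0.05 for break sensing and checkpoint and -0.04 for nucleotide excision repair. This order depends on which genes are taken and on how they are assigned to classes. Among other genes of the same pathways, described below, the median was again lowest for nucleotide excision (-0.20). That of recombination (0.36) lay below that of sensing and checkpoint (0.43). By the Reactome terms in the deposited annotation, the 18 genes under Homology Directed Repair had a median log2 change of 0.31, below the 0.54 of the other 22, and the 12 under Nonhomologous End-Joining 0.22, against 0.63 for the other 28. Those 18 genes hold 9 of the 11 recombination genes above and 6 of the 10 break sensing and checkpoint genes, but 1 of the 5 Fanconi genes. The differences between classes were not tested, since the genes were chosen with results known and the classes hold 2 to 11 genes each. Over the 16 recombination and Fanconi genes 14 changes were positive, and over the other 24 genes 14 were. Over all 40 genes 70% of changes were positive, where 53.1% of all genes tested were. Of 20 proliferation genes, described as a reference for dividing cells, 15 were called higher and none lower, with a median log2 change of 1.88. The smallest adjusted p-values were those of Top2a, Rrm2 and Ccna2, with log2 changes of 1.997 ± 0.18, 2.32 ± 0.27 and 2.29 ± 0.30. Mki67, the proliferation marker, was at 538, 532, 596, 763 and 850 CPM at day 7, against 202 and 155 CPM at day 0 (log2 change 1.88 ± 0.20, edgeR adjusted p = 6.96e-05). All 20 had a positive change, and the part of dividing cells in the levels of the repair genes was not tested.

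**Figure D3:**
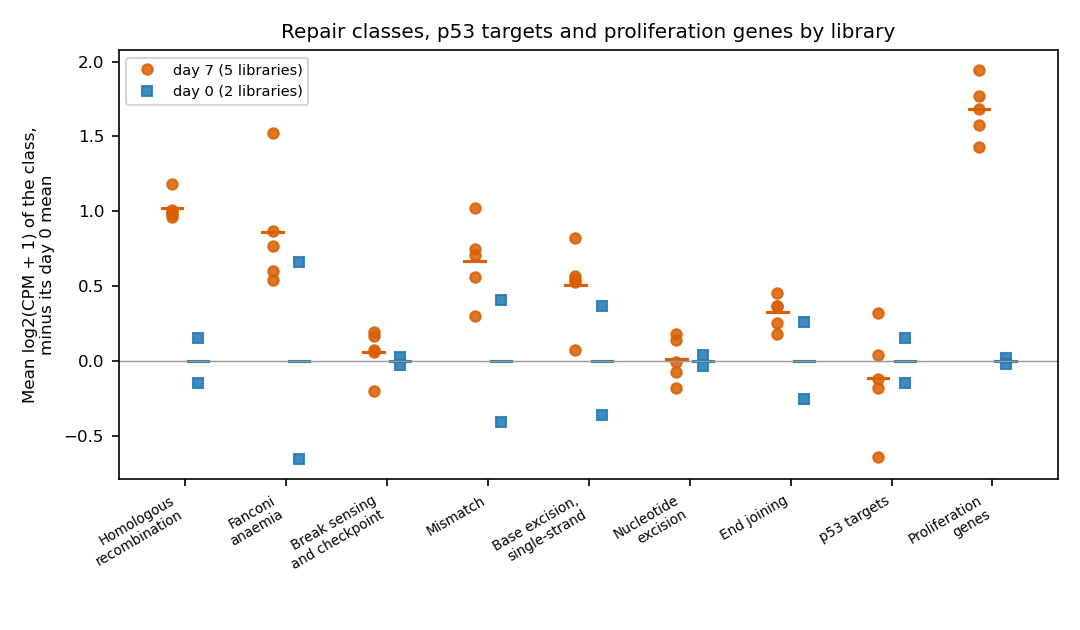
Mean log2(CPM + 1) of each repair class, of 20 p53 targets and of 20 proliferation genes in each library, minus the class's day 0 mean; circles are day 7 libraries, squares day 0 libraries and short lines the group means. Homologous recombination and the proliferation genes are the classes in which the circles lie clear above both squares; in the others circles and squares overlap or lie close.

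Per exon length the recombination genes were the low end of the set. Levels per kilobase used the exon lengths of GENCODE M21, which may not be the annotation behind the counts. The median level was 2.09 CPM per kb at day 7 and 1.08 CPM per kb at day 0 for homologous recombination, 2.32 and 1.15 CPM per kb for the Fanconi genes, 6.59 and 4.76 CPM per kb for end joining, and 10.2 and 11.2 CPM per kb for break sensing and checkpoint. Trp53 had the highest level of the 40 on both days, with 32.6 CPM per kb at day 7 and 38.3 CPM per kb at day 0, followed at day 7 by Parp1 with 26.3 CPM per kb and Ddb2 with 22.4 CPM per kb. At day 7 Parp1 and Ddb2 differed by less than the spread of Parp1 between libraries (SD 4.51 CPM per kb). Brca1 ranked 23 at day 7, with 3.49 CPM per kb, and 36 at day 0, with 0.676 CPM per kb.

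**Figure D4:**
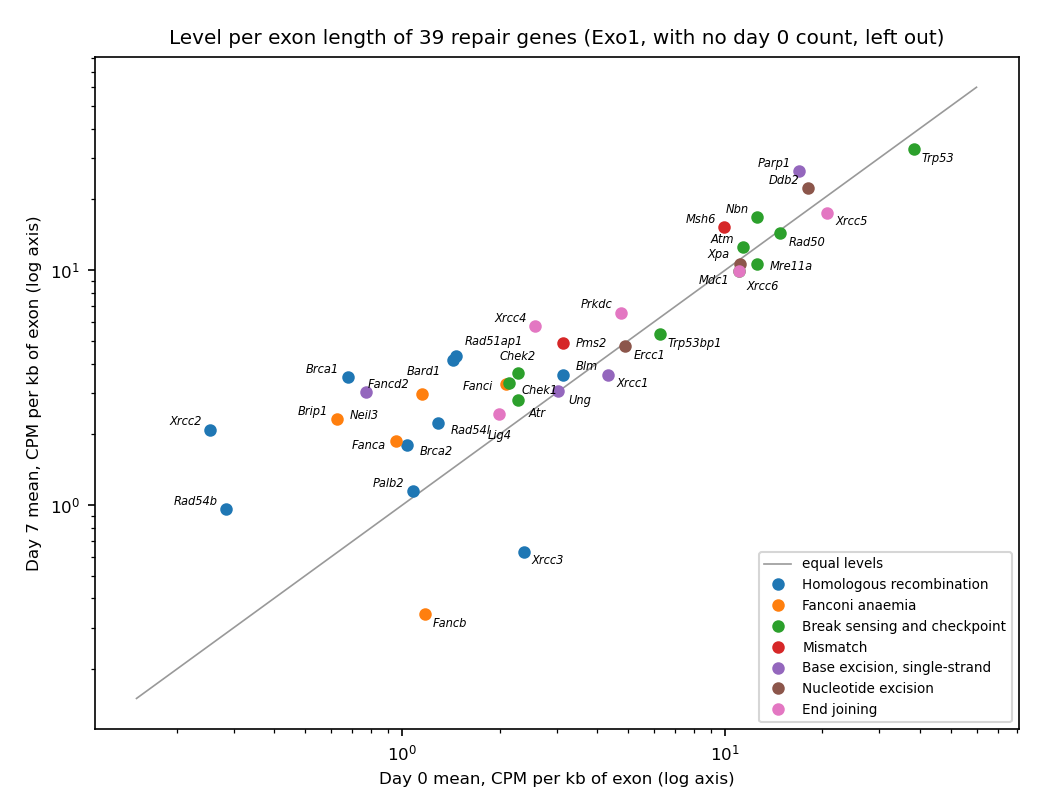
Mean level per kilobase of exon at day 7 against day 0 for 39 of the 40 genes (Exo1, with no day 0 count, is left out), on log axes, coloured by repair class; the line marks equal levels. Most low-level recombination and Fanconi genes lie above the line, with Xrcc3 and Fancb below it, and the genes above 10 CPM per kb lie nearer to it.

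Other genes of the same pathways, 120 in the table and 119 tested, gave 4 calls, all higher at day 7, or 3.36% where 1.54% of all genes tested were called. Their median log2 change was 0.16, and 79 of the 119 were positive. Clspn (Entrez 269582), the adaptor through which ATR activates CHEK1, was at 40.1, 68.1, 64.2, 71.8 and 45.7 CPM at day 7, against 7.19 and 6.96 CPM at day 0. The day 7 libraries lay far above both day 0 libraries, with a log2 change of 3.03 ± 0.42 (edgeR adjusted p = 1.05e-04). Timeless (Entrez 21853), which travels with the replication fork, rose with a log2 change of 1.97 ± 0.42 (edgeR adjusted p = 0.0118), a call lost without day 0 library 3 (0.122). Fignl1 (Entrez 60530), a recombination factor, was at 33.8 to 59.8 CPM at day 7, against 2.33 and 10.1 CPM at day 0 (log2 change 2.85 ± 0.54, edgeR adjusted p = 0.00346). The log2 change of Fignl1 was 2.16 with day 0 library 2 left out and 4.27 with day 0 library 3 left out, and the call held in both (edgeR adjusted p = 0.0476 and 3.06e-05). Lig1 (Entrez 16881), the ligase that seals Okazaki fragments and excision patches, was at 90.0 to 135.5 CPM at day 7, against 27.0 and 47.6 CPM at day 0 (log2 change 1.57 ± 0.29, edgeR adjusted p = 0.00254). The call of Lig1 was lost without day 0 library 2 (adjusted p = 0.0619), and those of Clspn, Timeless and Fignl1 were lost with limma-voom.

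Pcna, the sliding clamp shared by replication and damage bypass, averaged 293 ± 48.4 CPM in day 7 libraries and 269 ± 0.984 CPM in day 0 libraries (SD, n = 5 and 2; log2 change 0.12 ± 0.16). Among these other genes the classes had medians of 0.36 for 30 recombination genes, 0.18 for 13 Fanconi genes, 0.43 for 17 sensing and checkpoint genes, -0.11 for 5 mismatch genes, 0.25 for 8 end joining genes, 0.28 for 19 base excision genes, -0.20 for 18 nucleotide excision genes and 0.07 for 9 damage bypass genes. Of the 18 nucleotide excision genes 13 had a negative change, and none was called in either direction.

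Promoter sequence is shown for the 5 of the 40 genes that hold an E2F-type motif, since E2F factors are known to drive genes of S phase and the holders include genes that separated the days and genes that did not. RefSeq (GRCm38.p6) gave a start for 32 of the 40 genes, and the 250 bases before it were searched on both strands for TTTCCCGC, TTTGGCGC, TTTCGCGC and TTTGCCGC. A motif was found in 5 of 32 genes (15.6%), in 2.16% of 27025 genes with a promoter and in 3.79% of the 10295 tested genes that had one. The letters in capitals are the motif, and each sequence is written on the strand of its gene.
Bard1 (chr1:71103148-71103207, minus strand): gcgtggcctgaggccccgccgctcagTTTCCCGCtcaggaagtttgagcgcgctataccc
Brca2 (chr5:150522427-150522486, plus strand): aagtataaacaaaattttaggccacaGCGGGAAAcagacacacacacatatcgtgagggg
Chek2 (chr5:110839805-110839864, plus strand): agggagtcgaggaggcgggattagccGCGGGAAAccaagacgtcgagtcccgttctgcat
Mdc1 (chr17:35841456-35841497, plus strand): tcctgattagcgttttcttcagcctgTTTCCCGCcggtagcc
Xrcc6 (chr15:82016297-82016356, plus strand): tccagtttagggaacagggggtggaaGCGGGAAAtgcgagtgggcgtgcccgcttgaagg

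All 5 carry the same letters, TTTCCCGC, read on 1 strand or the other. Bard1 and Brca2 had every day 7 library above both day 0 libraries, with log2 changes of 1.52 and 0.80. Chek2, Mdc1 and Xrcc6 overlapped, with log2 changes of 0.68, -0.16 and -0.15. Of the 9 genes whose groups did not overlap upwards, 7 had a promoter and 2 of these held the motif, and of the other 25 genes with a promoter 3 did. For the CCAAT box the corresponding numbers were 3 of 7 and 15 of 25. Brca1 held none of the 4 motifs in its 250 bases but had a CCAAT box, shown in capitals, which 18 of the 32 genes (56.2%) and 40.4% of the tested genes had.
Brca1 (chr11:101552011-101552067, minus strand): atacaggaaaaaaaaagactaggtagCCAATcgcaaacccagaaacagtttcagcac
The CHR-type motif TTTGAA, known from promoters of mitotic genes, was found in 1 of the 32 genes, Bard1, where 13.4% of the tested genes held it. A match is a description of the letters and no evidence that a factor binds there.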

How the data were processed

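The deposited table holds unnormalized gene counts in 7 library columns. Tools listed in the submitters' processing notes are HISAT2 2.0.5, featureCounts 1.5.0-p3 and CASAVA 1.8, with no settings. The genome build, the annotation and whether counting used strand were not given in the sources used here. Columns were assigned to day 7 or day 0 by name. In R 4.3.3, edgeR 4.0.16 applied filterByExpr, TMM scaling (factors 0.988 to 1.01) and a robust quasi-likelihood fit, glmQLFit with glmQLFTest. P-values were adjusted over the 12929 genes tested by Benjamini-Hochberg. A standard error is the size of a log2 change over the square root of its F statistic, and 95% intervals use the degrees of freedom of the fit. DESeq2 1.42.0 and limma-voom (limma 3.58.1) were alternatives. The fit was also run on simulated data. Changes were set there only in genes of higher level, so the run does not cover changes in low-level repair genes. All 40 genes are accounted for. From the other lists, called genes with the smallest adjusted p were named (up to 3 a class and direction), with Pcna, Cdkn1a, Mdm2, Mki67 and Top2a whatever their values. The genes, lists and alternatives were chosen with earlier results of these data known. Mdm4, Acp2 and marker genes were named after their values were seen. The list name of Paxx was corrected after the file was read. Exon lengths and overlaps came from GENCODE M21. Of 32 promoters, 27 had the 50 bases after the start inside a GENCODE transcript. A few genes of the other lists are not reported here.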

Additional observations from a re-analysis of the deposited data

Results flagged for a closer look

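Each of the 40 genes was examined for a day 7 library far from the other day 7 libraries (Dixon's criterion, which chance meets in about 1 group in 20), and 2 met it. Trp53 was at 59.5 CPM in day 7 library 5, where the other day 7 libraries lay between 147 and 152 CPM. Brca2 was at 42.05 CPM in day 7 library 1, where the others lay between 17.6 and 23.7 CPM.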

How the results depend on the processing

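No paired analysis was possible because the column digits cannot be matched to the replicate numbers of the titles. With library sizes alone 1 repair gene was called higher, and with no low-count filter 1, in both cases a recombination gene (1 of the recombination and Fanconi genes). With no filter the counts over all genes were 249 higher and 126 lower, and 7 other pathway genes were higher. With DESeq2 they were 638 and 192, with 6 repair genes higher (4 recombination and Fanconi, 2 excision and mismatch) and 11 other pathway genes. With limma-voom they were 53 and 94, with 1 other pathway gene. Without day 7 libraries 5 and 6, 107 genes were lower. With 1 library left out, the calls over all genes were 87 to 153 higher and 30 to 59 lower (138 and 61 with all), repair genes called higher 0 to 2, recombination and Fanconi genes 0 to 2, and the median log2 change of the 40 genes 0.38 to 0.55 (0.45 with all). Where 1 day 0 library is left, it is assumed to vary like day 7. Of the 40 genes, 29 changed sign in none of the alternatives in which they were tested; the minimum mean of 5 CPM left 36 of them. The log2 change moved by over 1.5 times in fold for 13 of the 40 genes when a day 0 library was left out and for 3 when a day 7 library was, and these fits called 1.02% to 1.5% of the genes tested. With 1 library left out the log2 change ranged from -0.28 to 0.61 for Palb2, -2.77 to 7.66 for Fancb, -0.13 to 0.070 for Rad50, -0.17 to 0.57 for Atm, -0.46 to 0.049 for Trp53, -0.43 to 0.0021 for Xrcc5, -0.35 to 0.093 for Xrcc6, -0.18 to 1.001 for Lig4, -0.56 to 0.98 for Ung, -0.35 to 0.33 for Ercc1 and -0.24 to 0.14 for Xpa. Ung was -0.0050 with a minimum mean of 5 CPM, and with limma-voom Ung was -0.17 and Palb2 -0.034. Without day 7 libraries 5 and 6, Palb2 was -0.25, Lig4 -0.13, Ercc1 0.041 and Cdkn1a -1.33. The cause of these changes was not tested. The alternatives for genes outside the 40 were added after seeing the data.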
